A study of Mus musculus with 11 samples.

Results

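The 9 genes described here handle iron in mouse heart tissue: the exporter gene Slc40a1 (ferroportin), the uptake genes Tfrc and Slc11a2, the ferritin genes Fth1 and Ftl1, the hormone gene Hamp, the sensing gene Hfe, and Ireb2 and Aco1, which encode the iron regulatory proteins. They were taken by symbol from a table of 23420 genes, and all 9 were found. Slc40a1 was chosen by its levels in these same hearts, so its values are given as a description, with no test. The study measured RNA of whole heart tissue from mice carrying loxP sites in Cd36, the gene of a fatty acid transporter, to ask how loss of Cd36 in one cell type affects lipid and glucose use. The 11 libraries form 4 groups. EC KO (label "EC cd36 KO", n = 3) had Cd36 deleted by Tie2-cre, a driver of endothelial cells that is also known to act in blood cells. CM KO (label "MHC cd36 KO", n = 3) had it deleted by MHC-cre, a driver of cardiomyocytes. Total KO (label "Total cd36 ko", n = 3) is not described further in the labels, and Control (n = 2) is heart tissue for which no Cre is given. All 4 groups have the same strain label of crossed Cd36 loxP mice, and no age, sex or diet is given. Nothing in the labels ties a library to 1 animal, so p-values reflect only how far libraries of a group spread, which may be technical.

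Iron enters most cells bound to transferrin through the transferrin receptor, is moved out of the endosome by DMT1, the product of Slc11a2, and is stored in shells built of ferritin heavy and light chains. Ferroportin is the known route of iron out of mammalian cells, and the hormone hepcidin, the product of Hamp, binds ferroportin and triggers its breakdown. When a cell is short of iron, the iron regulatory proteins bind hairpins in messenger RNAs called iron-responsive elements: binding in the 5′ UTR blocks translation of ferritin and ferroportin, and binding in the 3′ UTR protects the Tfrc message from decay. In the heart, ferroportin of cardiomyocytes is known from mouse genetics to limit iron load.

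The hairpins are shown because iron regulatory proteins are known to act through such stretches, on translation in some messages and on message stability in Tfrc. A hairpin search covered the protein-coding transcripts of all 9 genes (GRCm38, the build also called mm10, with GENCODE annotation). Its pattern was 5 bases of lower stem, an unpaired C and 5 bases of upper stem, then the loop CAGTGN and the closing 10 bases. The last base of the loop could not be G. The search allowed G-T pairs and 1 unpaired position in the lower stem. It was run on the transcript strand only. It matched 7 stretches of 27 bases, 1 each in Slc40a1, Fth1 and Ftl1 and 4 in Tfrc. The same pattern matched transcripts of 24 of 21877 protein-coding genes (0.11%), Alas2 among them. Capitals mark the 6-base loop.
Slc40a1, 5′ UTR, chr1:45925466-45925492, minus strand: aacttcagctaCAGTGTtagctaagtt
Fth1, 5′ UTR, chr19:9982733-9982759, plus strand: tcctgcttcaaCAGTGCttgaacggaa
Ftl1, 5′ UTR, chr7:45459780-45459806, minus strand: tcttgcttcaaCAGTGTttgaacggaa
Tfrc, 3′ UTR, first match, chr16:32631220-32631246, plus strand: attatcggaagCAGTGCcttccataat
Tfrc, 3′ UTR, next match, chr16:32631599-32631625, plus strand: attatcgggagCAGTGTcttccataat
Tfrc, 3′ UTR, next match, chr16:32631664-32631690, plus strand: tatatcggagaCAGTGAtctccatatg
Tfrc, 3′ UTR, last match, chr16:32631711-32631737, plus strand: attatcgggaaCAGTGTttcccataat
The Slc40a1, Fth1 and Ftl1 matches lie ahead of the coding sequence, and the Tfrc matches lie behind it. A match is a match of letters, and no match in the other 5 genes says only that this pattern is not in their annotated protein-coding transcripts. Iron-responsive elements that depart from the pattern, in these 5 genes or in Tfrc, would be missed. The search thus does not show which genes lie outside control by the iron regulatory proteins.

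Depth was 2268403 reads in EC KO replicate 1, 11157062 in Total KO replicate 1 and 15582950 to 20105673 in the other 9 libraries. Values are normalized read counts, that is, reads per gene divided by 1 factor per library. CM KO replicate 1 differed more from the other CM KO libraries than any other pair within a group did by chi-square per degree of freedom, a measure that grows with depth (54.1 and 39.1, against 2.87 to 26.4 in the other pairs). By Pearson r of log2 values across genes, the shallow EC KO replicate 1 was the least like its group (0.984 and 0.983), followed by CM KO replicate 1 (0.991 and 0.992 with the other CM KO libraries). The label numbers run separately for CM KO, for EC KO with Control, and for Total KO, so this numbering and these groups cannot be told apart. Cd36 itself stood at 25758 to 30308 in EC KO, 15792 to 21610 in CM KO, 18847 to 23452 in Total KO and 35425 to 44530 in Control, so all 9 knockout libraries lay below both Control libraries. Its mean was 69.9% of Control in EC KO, 49.0% in CM KO and 53.0% in Total KO, and limma's adjusted p was 0.298, 0.00863 and 0.0809 in that order. The CM KO difference of -1.03 on the log2 scale was -0.87 without Control replicate 1, where it did not pass (adjusted p = 0.124), and it did not pass in a limma fit of CM KO and Control alone (adjusted p = 0.0862). The Total KO difference of Cd36 passed by DESeq2 (adjusted p = 2.06e-05) and, in limma, on library totals (0.0352), with arrayWeights (0.0452), without CM KO replicate 1 (0.0109) and with the replicates 1 of the 3 knockout groups left out (0.0276). A count per gene does not show which exons were removed, so Cd36 reads that remained, also in Total KO, cannot be assigned to cells or to a truncated message.

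Ferroportin messenger RNA was lower in every knockout library than in either Control library. Slc40a1 (chr1:45908068-45926523, minus strand) had 731, 676 and 802 normalized counts in EC KO hearts, 425, 525 and 549.6 in CM KO hearts, 687, 847 and 784 in Total KO hearts, and 1627 and 1253 in Control. The lowest Control library was thus above the highest knockout library, and the 3 CM KO libraries lay below all 3 EC KO and all 3 Total KO libraries. Group means were 736 ± 63.3 in EC KO, 499.7 ± 65.9 in CM KO, 773 ± 80.6 (SD, n = 3 each) in Total KO and 1440 ± 264 (SD, n = 2) in Control. EC KO held 51.1% of the Control mean, CM KO 34.7% and Total KO 53.7%. On the log2(value + 1) scale the differences from Control were -0.96 in EC KO, -1.52 in CM KO and -0.89 in Total KO, each with a standard error of 0.147.

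The order of the ferroportin levels was therefore CM KO, then EC KO and Total KO, then Control, and the neighbours EC KO and Total KO overlapped. Total KO minus EC KO was 0.07 on the log2 scale. Slc40a1 was read from 121 reads in EC KO replicate 1 and from 540 to 2093 reads in the other libraries. All 3 differences from Control share the same 2 Control libraries. Leaving out Control replicate 1, the higher one, gave -0.77 in EC KO, -1.33 in CM KO and -0.70 in Total KO. Leaving out Control replicate 2 gave -1.15, -1.71 and -1.08 in the same order. Of the 12976 genes averaging 10 or more normalized counts, 2.09% were lower in all 9 knockout libraries than in both Control libraries and 1.26% were higher in all 9. In tissue RNA, fewer cells of a type and less RNA per cell cannot be told apart.

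**Figure D1:**
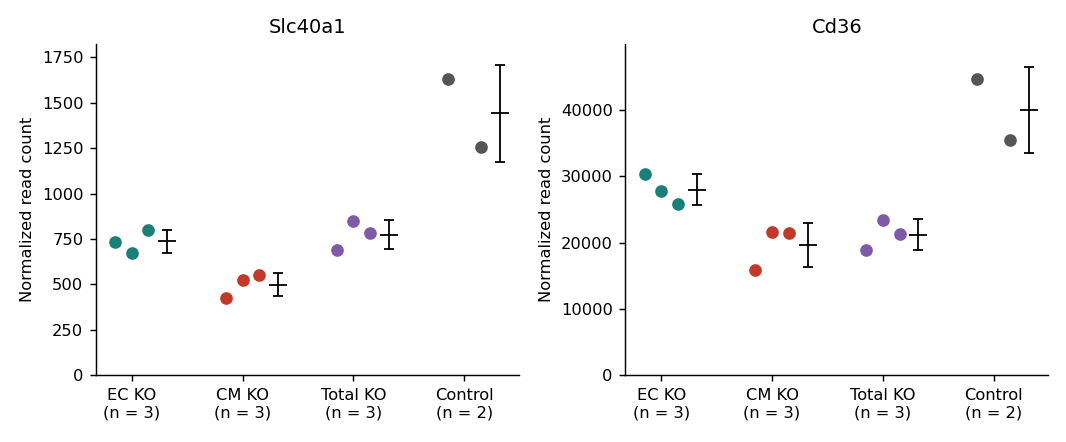
Normalized read counts of Slc40a1 (left) and of the targeted gene Cd36 (right) in every library, with points for libraries and bars for the group mean ± SD. Slc40a1 reached 847 in the highest knockout library and 1253 in the lower Control library, and the CM KO libraries, at 425 to 549.6, were the lowest.

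Per kilobase of each gene's longest coding transcript, which puts genes on 1 scale, the mean level over the 11 libraries was 14570 for Fth1, 1907 for Ftl1, 240.3 for Slc40a1, 237 for Hfe and 220 for Aco1. Ireb2 stood at 119, Slc11a2 at 106, Tfrc at 45.3 and Hamp at 2.29 on that scale. Ferroportin was thus close to Hfe and Aco1 when averaged over all hearts. In Control hearts the level per kilobase was 427 for Slc40a1, 257 for Hfe and 219 for Aco1, and in CM KO hearts it was 148 for Slc40a1, 238 for Hfe and 192 for Aco1. On this length, ferroportin thus stood above Hfe in Control and below it in CM KO. The longest coding transcript of Slc40a1 has 3370 bases, but the exons of all its annotated transcripts cover 9000. Hfe has 3572 bases by both measures, so these comparisons between genes depend on the length used.

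None of the other genes that could be tested passed against Control. Of the 7 with a mean of at least 10, none was called against Control in any knockout by limma (adjusted p under 0.05 over all 12976 genes), by edgeR or by DESeq2. At an unadjusted p under 0.05 there were 1 of 7 in EC KO, 2 of 7 in CM KO and 0 of 7 in Total KO, against 10.5%, 21% and 8.11% of all genes. Over all genes limma called 0.316% in EC KO (22 higher and 19 lower), 5.7% in CM KO (427 higher and 312 lower) and 0.0848% in Total KO (8 higher and 3 lower). With values rescaled to equal library totals these splits were 15 and 23, 568 and 237, and 11 and 15. The eighth, Hamp, stood at so few reads that it was not tested. With 0.316% and 0.0848% of genes called, the EC KO and Total KO comparisons called few genes of any kind.

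Of the uptake genes, Tfrc, the transferrin receptor (chr16:32608920-32632794, plus strand), had 254, 244 and 203 normalized counts in EC KO hearts, 157, 274 and 215 in CM KO hearts, 276, 217 and 209 in Total KO hearts, and 199 and 189 in Control. All EC KO and Total KO libraries were above both Control libraries, while the CM KO libraries lay on both sides of them. The log2 differences were 0.26 ± 0.21, 0.11 ± 0.21 and 0.26 ± 0.21 in EC KO, CM KO and Total KO (± SE; limma, adjusted p = 0.703, 0.814 and 0.83). The interval for EC KO, -0.19 to 0.71, is wide, and Tfrc rested on only 42 reads in EC KO replicate 1. Slc11a2 (chr15:100387898-100425072, minus strand) had 441, 457 and 472 in EC KO hearts, 477, 474 and 454 in CM KO hearts, 521, 480.0 and 509.7 in Total KO hearts, and 349.8 and 512 in Control. The 2 Control libraries were farther apart than all 9 knockout libraries together, and its differences were 0.11, 0.15 and 0.25 (limma, adjusted p = 0.839, 0.606 and 0.715). Slc11a2 overlaps the gene Gm5475 on the opposite strand, and whether the counting used strand is not given in the sources used here.

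Of the storage genes, neither ferritin chain passed the test. Fth1, the heavy chain that oxidizes iron for storage (chr19:9980598-9985098, plus strand), had 20821, 23440 and 27406 in EC KO hearts, 19547, 16856 and 19365 in CM KO hearts, 24928, 20439 and 24524 in Total KO hearts, and 19686 and 22424 in Control. The 3 CM KO libraries lay just below both Control libraries, and the other groups overlapped with Control. Its log2 differences were 0.18, -0.18 and 0.14 in EC KO, CM KO and Total KO (limma, adjusted p = 0.724, 0.544 and 0.894). Ftl1, the light chain that helps the iron core form (chr7:45457944-45459884, minus strand), had 1891, 1741 and 2320 in EC KO hearts, 2496, 1659.7 and 1829 in CM KO hearts, 1908, 1770 and 1707.5 in Total KO hearts, and 1650.1 and 1329 in Control. Ftl1 was the 1 gene of the iron lists used here that was higher in all 9 knockout libraries than in both Control libraries, though CM KO replicate 2, at 1659.7, stood just above Control replicate 1, at 1650.1. Its differences were 0.41 ± 0.17, 0.41 ± 0.17 and 0.28 ± 0.17 (limma, adjusted p = 0.411, 0.187 and 0.771, unadjusted p = 0.0309, 0.0323 and 0.128). The Ftl1 count is uncertain, since 58.4% of the 50-base stretches of its exons also occur in transcripts of 17 other genes, chiefly the copy Ftl1-ps1, and 2 genes overlap it, 1 on each strand. How the counting treated such reads is not given in the sources used here.

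Hamp (chr7:30942368-30944032, minus strand) had 0, 1 and 1 reads in EC KO hearts, 1, 1 and 0 in CM KO hearts, 0, 0 and 5 in Total KO hearts, and 1 and 3 in Control. A count of 0 allows up to 3 reads, or 18.1 normalized counts in EC KO replicate 1 and 3.82 in Total KO replicate 1, so no difference in Hamp was detectable at this depth and no fold is given. Hfe, an MHC class I-like protein that binds the transferrin receptor and is known for its part in hepcidin control in liver (chr13:23702034-23710854, minus strand), had 828, 717 and 867 in EC KO hearts, 774, 877 and 899.6 in CM KO hearts, 864, 847 and 804 in Total KO hearts, and 874 and 959.5 in Control. The EC KO and Total KO libraries were all below both Control libraries and CM KO overlapped with Control. Differences were -0.19, -0.11 and -0.13 in EC KO, CM KO and Total KO (limma, adjusted p = 0.574, 0.624 and 0.847).

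Of the genes of the iron regulatory proteins, neither passed against Control. Aco1 was called by limma in EC KO minus CM KO and Total KO minus CM KO, as 19.1% and 16.4% of all genes were. Neither of these Aco1 calls held on library totals. Aco1 encodes IRP1, which holds an iron-sulfur cluster and acts as cytosolic aconitase until the cluster is lost and it can bind RNA (chr4:40143081-40198338, plus strand). It had 839.9, 890.6 and 871 normalized counts in EC KO hearts, 748, 732 and 729 in CM KO hearts, 925, 913 and 943 in Total KO hearts, and 799 and 881 in Control. The CM KO libraries lay below every other library and the Total KO libraries above every other one. Against Control, the differences were 0.05 ± 0.09 in EC KO, -0.19 ± 0.09 in CM KO and 0.14 ± 0.09 in Total KO, none of which passed (limma, adjusted p = 0.898, 0.233 and 0.756). Ireb2 encodes IRP2, which cells degrade when iron is plentiful (chr9:54863789-54912530, plus strand), and had 798, 758 and 733 in EC KO hearts, 545, 677 and 619.9 in CM KO hearts, 714, 685 and 643 in Total KO hearts, and 769 and 609 in Control. The 2 Control libraries were far apart and every knockout group overlapped with them, and the differences from Control were 0.16, -0.16 and -0.01 (limma, adjusted p = 0.697, 0.504 and 0.992).

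**Figure D2:**
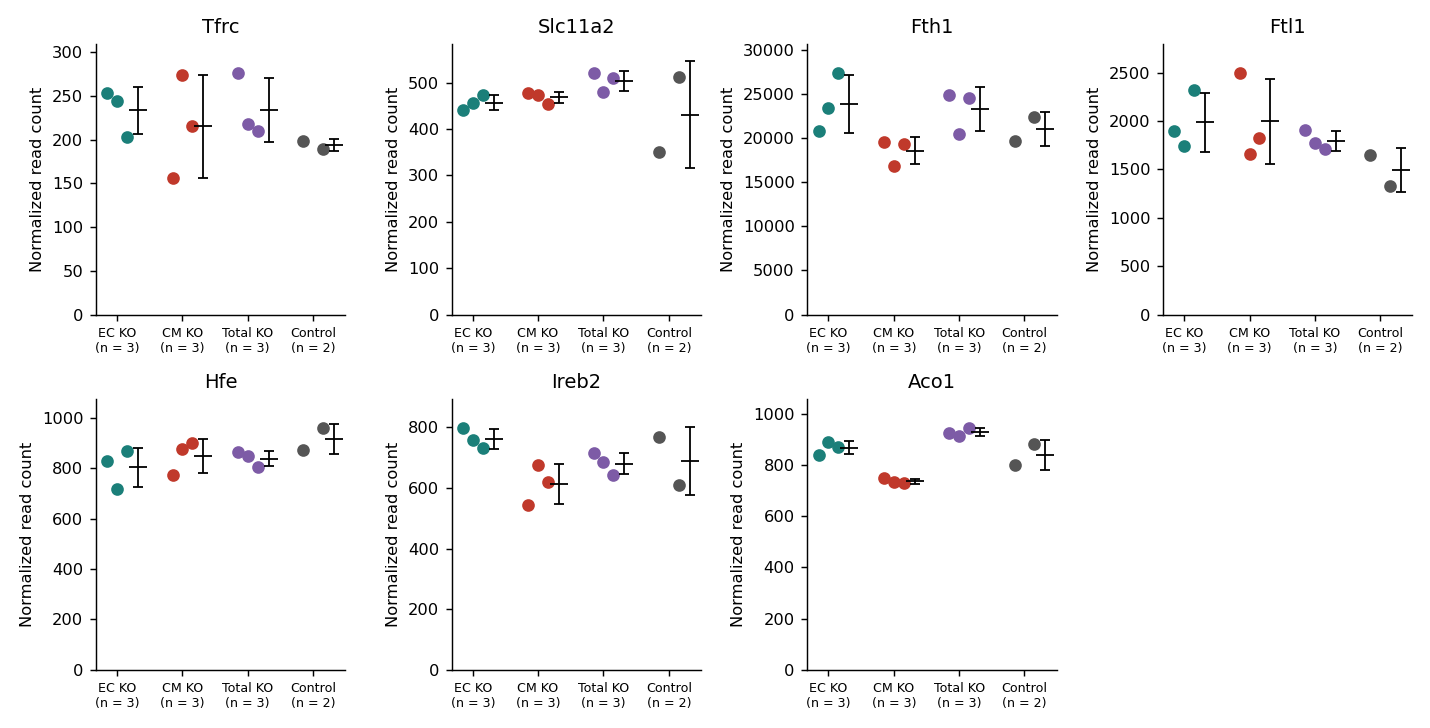
Normalized read counts of the 7 other tested genes in every library, with points for libraries and bars for the group mean ± SD. The 3 CM KO libraries of Aco1, at 729 to 748, sit below all others, and Ftl1 is higher in all 9 knockout libraries than in both Control libraries, at 1650.1 and 1329.

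Among the 7 tested genes, those whose 3 knockout libraries all lay above both Control libraries were Tfrc and Ftl1 in EC KO, Ftl1 in CM KO, and Tfrc, Ftl1 and Aco1 in Total KO. Over all tested genes, 12% in EC KO, 18.3% in CM KO and 12.3% in Total KO did so. Those all below both Control libraries were Hfe in EC KO, Fth1 and Aco1 in CM KO, and Hfe in Total KO, against 13.2%, 18.3% and 12.8% of all genes in the same order. No test was made of these counts.

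**Figure D3:**
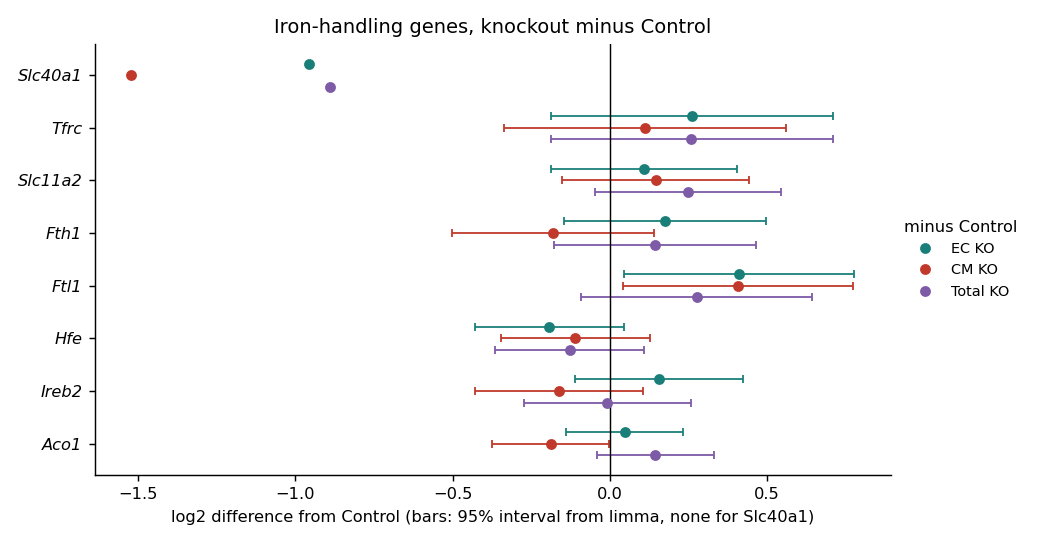
Log2 differences from Control of Slc40a1 and the 7 tested genes in each knockout, with the 95% interval from limma for the 7. Slc40a1, which was chosen for these values, lies between -1.52 and -0.89, while the other 7 genes lie between -0.19 and 0.41.

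Between knockouts, Aco1 was higher in EC KO than in CM KO and higher in Total KO than in CM KO. Means were 867 ± 25.6 in EC KO, 927 ± 15.2 in Total KO and 736 ± 10.6 in CM KO (SD, n = 3 each). EC KO minus CM KO was 0.24 ± 0.08 (limma, adjusted p = 0.0495) and Total KO minus CM KO was 0.33 ± 0.08 (limma, adjusted p = 0.0139). By limma these were the only calls among the 7 genes in the 3 comparisons between knockouts, with 1, 0 and 1 called in EC KO minus CM KO, Total KO minus EC KO and Total KO minus CM KO. Over all genes limma called 19.1% between EC KO and CM KO (1131 higher and 1348 lower in EC KO), 16.4% between Total KO and CM KO (1064 higher and 1064 lower in Total KO) and 0.0385% between Total KO and EC KO. Rescaling to library totals moved the median of all genes to -0.13 for EC KO minus CM KO and -0.14 for Total KO minus CM KO, with 640 higher and 2088 lower, and 547 higher and 1750 lower. On that scale Aco1 stood at 0.11 and 0.20 and was not called (limma, adjusted p = 0.341 and 0.111). The first call was also lost with any EC KO, CM KO or Total KO library left out (0.22 to 0.26, adjusted p = 0.0678 to 0.133), and the other without Total KO replicate 3 (0.32, adjusted p = 0.0556). With the replicates 1 of the 3 knockout groups left out together, neither passed (0.27 and 0.35; limma, adjusted p = 0.117 and 0.0632). EC KO minus CM KO also did not pass in a limma fit of those groups alone (adjusted p = 0.0859) or by DESeq2 (adjusted p = 0.0519).

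Fth1 and Ireb2 also averaged more in EC KO than in CM KO, without passing by limma. Fth1 averaged 23890 ± 3315 in EC KO and 18590 ± 1504 in CM KO (0.36 ± 0.13; limma, adjusted p = 0.0781), with no overlap of the 3 and 3 libraries. DESeq2 called Fth1 (adjusted p = 0.0264) and edgeR did not (adjusted p = 0.0708). Ireb2 averaged 763 ± 32.6 in EC KO and 614 ± 66.6 in CM KO, also with no overlap (0.32 ± 0.11). Its adjusted p was 0.0606 by limma, 0.0721 by edgeR and 0.0867 by DESeq2. EC KO libraries lay above CM KO libraries without overlap in 3 of the 7 genes, against 19.1% of all genes, and Total KO libraries above CM KO libraries in 3 of 7 (Fth1, Slc11a2 and Aco1), against 19.6%. Hfe and Slc11a2 averaged less in EC KO than in CM KO (-0.08 and -0.04), as Ftl1 and Hfe did in Total KO (-0.13 and -0.02). Slc40a1, chosen by its levels in these hearts, is only described, at 0.56 for EC KO minus CM KO and 0.63 for Total KO minus CM KO. Tfrc and Ftl1 overlapped between EC KO and CM KO, with differences of 0.15 (95% interval -0.25 to 0.55) and 0.00 (-0.32 to 0.33).

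Cell type markers moved with CM KO. Macrophages are known to return the iron of old red cells through ferroportin. Summed over 13 macrophage markers, the level was 4066 to 4514 in EC KO, 7580 to 12924 in CM KO, 4142 to 5251 in Total KO and 4262 to 4490 in Control. Of these 13 markers, 9 were called higher in CM KO than in Control, beside 3.29% of all genes called higher and 2.4% called lower. None was called in EC KO or Total KO, where 0.316% and 0.0848% of all genes were called. The same shares stand beside the counts of the lists below. The 6 fibroblast markers summed to 12313 to 14145 in EC KO, 22614 to 72651 in CM KO, 12234 to 15083 in Total KO and 14612 to 15071 in Control, with 3 higher in CM KO. The 7 atrial markers, whose sum holds the stress-responsive Nppa, summed to 5390 to 8275 in EC KO, 106306 to 216641 in CM KO, 6872 to 17413 in Total KO and 6136 to 10306 in Control, with 3 of 4 tested higher in CM KO. The 8 cardiomyocyte markers summed to 1225847 to 1312284 in EC KO, 700441 to 1029436 in CM KO, 1199189 to 1292589 in Total KO and 1146233 to 1164283 in Control, with none called against Control. The 7 endothelial markers, 28130 to 31287 in EC KO, 24243 to 28897 in CM KO, 25130 to 32676 in Total KO and 31071 to 33124 in Control, had none called against Control. The part of these markers in the CM KO values of Slc40a1 and Aco1 was not tested. The label of heart tissue fits the high cardiomyocyte sum in every library. The globin genes Hba-a1, Hba-a2, Hbb-b1 and Hbb-b2 were listed at 0 in all 11. Of 9 erythroid and blood genes chosen, 7 were in the table and 1 had a mean of at least 10. Blood content could thus not be judged from them.

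Beyond the 9 genes, the wider iron lists held 75 genes of uptake, export, storage, regulation, mitochondrial iron and heme. Of these, 72 were in the table and 63, without Slc40a1, had a mean of at least 10. limma called 0 of 63 in EC KO, 3 of 63 in CM KO and 0 of 63 in Total KO against Control, beside the 0.316%, 5.7% and 0.0848% of all genes. At an unadjusted p under 0.05 there were 8, 14 and 4 of 63, against 10.5%, 21% and 8.11% of all genes. edgeR called 0, 4 and 0 of the 63, beside 50, 1007 and 14 of all tested genes. DESeq2 called 2, 4 and 0 of the 63, beside 162, 1276 and 100 of all tested genes. The median log2 difference over the 63 was 0.01 in EC KO, -0.11 in CM KO and 0.10 in Total KO, against -0.01, 0.00 and 0.00 over all tested genes. In the Uptake list, 2 of 11 rose in CM KO (3.29% of all genes did) and none passed in EC KO or Total KO. Heme synthesis and breakdown had 1 of 18 lower in CM KO (2.4% of all genes). The lists of export and ferroxidases (2 tested), storage and chaperones (5), regulation (10) and mitochondrial iron and iron-sulfur clusters (17) had none called against Control in any knockout.

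**Figure D4:**
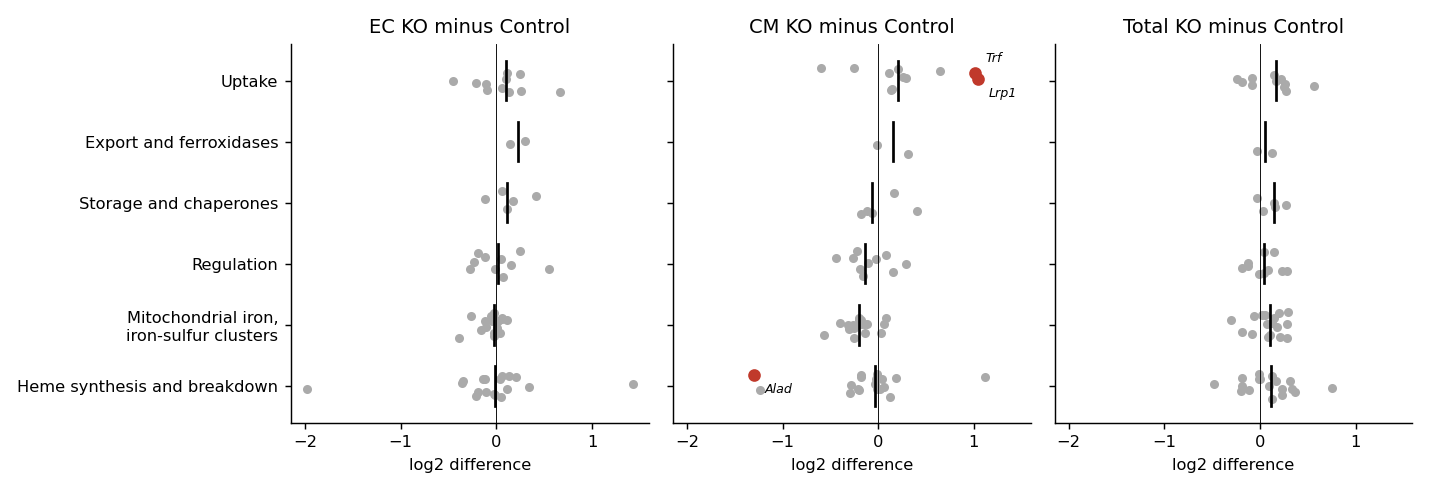
Log2 difference from Control of each tested gene of the 6 iron lists, Slc40a1 left out, with a bar at each list's median. Red points passed limma's test: Trf and Lrp1 above 0 and Alad below 0, all in CM KO.

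Trf, which encodes the iron carrier transferrin, had 592, 610.4 and 636 normalized counts in EC KO hearts, 1733, 999 and 1361 in CM KO hearts, 704, 787 and 702 in Total KO hearts, and 631 and 692 in Control. All 3 CM KO libraries were above the other 8, and the Total KO libraries lay between them and both Control libraries. It rose by 1.01 ± 0.17 in CM KO (limma, adjusted p = 0.0104). Lrp1, a large endocytic receptor that takes up heme bound to hemopexin among many ligands, had 2991, 3163 and 2917 in EC KO hearts, 7188, 4590 and 5583 in CM KO hearts, 2920.3, 3318 and 3102 in Total KO hearts, and 2402 and 3190.2 in Control, and all CM KO libraries were again above the other 8. It rose by 1.04 ± 0.17 in CM KO (limma, adjusted p = 0.00788). Both were highest in CM KO replicate 1, which differed most from the rest of its group by chi-square. Alad, an enzyme of heme synthesis, had 1184, 1238 and 1570.2 in EC KO hearts, 381, 604 and 600.3 in CM KO hearts, 1297, 1672 and 2043 in Total KO hearts, and 1226 and 1321 in Control. It fell by 1.30 ± 0.22 on the log2 scale in CM KO (limma, adjusted p = 0.00893), with no overlap between CM KO and any other group. None of the 3 calls held without Control replicate 1, where Trf stood at 0.94, Lrp1 at 0.83 and Alad at -1.35 (limma, adjusted p = 0.125, 0.119 and 0.096). In a limma fit of CM KO and Control alone, Trf and Lrp1 did not pass (adjusted p = 0.0769 and 0.0735). The part of the fibroblast, macrophage and atrial markers in these 3 CM KO values was not tested.

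Hmox1, the inducible heme oxygenase that frees iron from heme, had 1746, 2216 and 2266 in EC KO hearts, 1217, 517 and 683 in CM KO hearts, 999, 1712 and 1277 in Total KO hearts, and 829 and 709.8 in Control. All EC KO and Total KO libraries lay above both Control libraries and CM KO overlapped with Control. The difference was 1.43 ± 0.29 in EC KO and 0.76 ± 0.29 in Total KO, neither of which passed in the main fit (limma, adjusted p = 0.0753 and 0.504). With the replicates 1 of the 3 knockout groups left out together, both passed (1.545 and 0.946; limma, adjusted p = 0.00351 and 0.0462). The EC KO difference also passed in limma with arrayWeights (adjusted p = 0.0457) and without CM KO replicate 2 (adjusted p = 0.0443). In EC KO the adjusted p was 0.0237 by DESeq2, 0.00468 in a limma fit of EC KO and Control alone, and 0.00881 without CM KO replicate 1, while it reached 0.337 without Control replicate 2. Slc39a14, a transporter of iron not bound to transferrin, averaged 1200 ± 90.8 in EC KO and 755 ± 17.1 in Control (0.67 ± 0.17; limma, adjusted p = 0.163, and 0.032 by DESeq2). In Total KO it averaged 1143 ± 284 (0.57 ± 0.17; limma, adjusted p = 0.36).

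**Figure D5:**
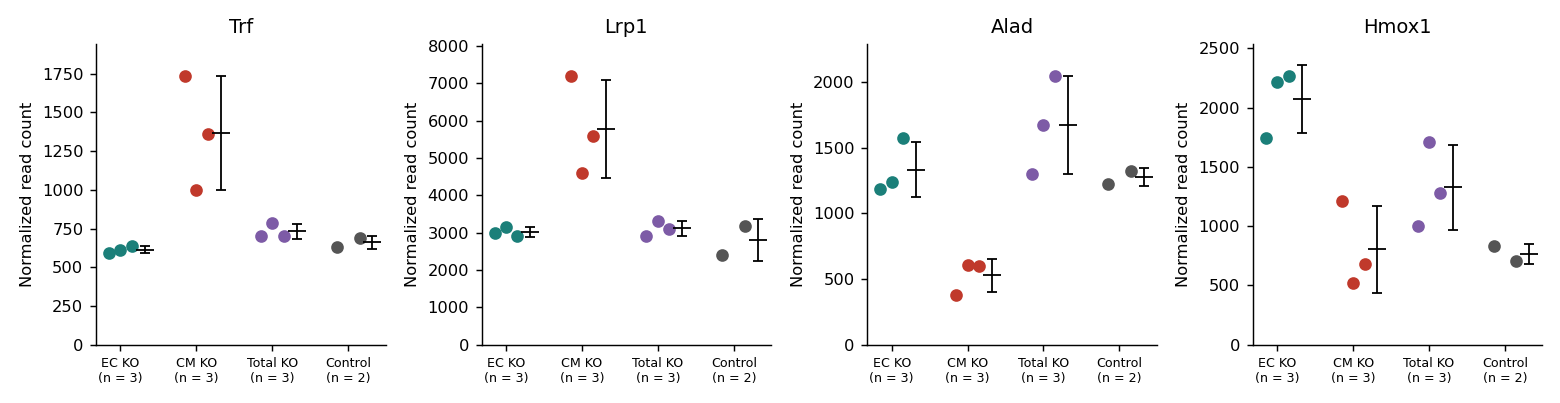
Normalized read counts of Trf, Lrp1, Alad and Hmox1 in every library, with points for libraries and bars for the group mean ± SD. CM KO stands above the other groups for Trf and Lrp1 and below them for Alad, at 381 to 604, and EC KO holds the highest Hmox1 values, 1746 to 2266.

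The remaining genes with the lowest p of their list did not pass against Control in the main limma fit. Of the ferroxidases, Cp averaged 4940 ± 461 in EC KO, 4967 ± 177 in CM KO, 4377 ± 503 in Total KO and 4036 ± 860 in Control, with a log2 difference of 0.30 in EC KO and 0.31 in CM KO. Heph differed from Control by 0.14 in EC KO and by -0.01 and -0.03 in CM KO and Total KO. Furin, a protease that cleaves the hemojuvelin protein, stood at 0.55 in EC KO, and Hfe2, the hemojuvelin gene, at -0.44 in CM KO. Fbxl5, which targets IRP2 for breakdown, stood at -0.26 in CM KO and -0.19 in Total KO. Iba57, needed for mitochondrial iron-sulfur clusters, averaged 497 ± 81.8 in CM KO and 728 ± 25.4 in Control. Its difference was -0.56 ± 0.16 (adjusted p = 0.0537 by limma, 0.0378 by edgeR and 0.0165 by DESeq2). In limma it also passed without CM KO replicate 2 (adjusted p = 0.0484) and without Total KO replicate 1 (0.0397). With the replicates 1 of the 3 knockout groups left out together, it stood at -0.42 and passed (limma, adjusted p = 0.0454).

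Between knockouts, calls in the iron lists were made only in the comparisons with CM KO. limma called 11 of 63 genes between EC KO and CM KO (9 higher and 2 lower in EC KO), 13 of 63 between Total KO and CM KO (11 higher and 2 lower in Total KO) and 0 of 63 between Total KO and EC KO, beside 19.1%, 16.4% and 0.0385% of all genes. By direction, 8.72% of all genes were higher and 10.4% lower in EC KO than in CM KO, and 8.2% each way in Total KO against CM KO. Between Total KO and EC KO, 8 of the 63 had an unadjusted p under 0.05 (10.4% of all genes). edgeR and DESeq2 called 0 of the 63 there, beside 4 and 70 of all tested genes. On library totals the splits became 5 higher and 6 lower, and 3 higher and 4 lower. In EC KO, Alad (1.35), Hmox1 (1.45) and the iron reductase gene Steap4 (0.50) were higher than in CM KO, and Trf (-1.12) and Lrp1 (-0.91) were lower, and these 5 calls held under all 11 omissions of a single library. Steap4 was lost with the replicates 1 of the 3 knockout groups left out together (0.41; limma, adjusted p = 0.0512). The other calls included Slc39a14, Aco1, Isca1, Bach1, a repressor of Hmox1, and Epas1, the transcription factor HIF-2 alpha, each higher in EC KO and each lost with at least 1 library left out. The count was 6 when EC KO replicate 2 was omitted and 7 when EC KO replicate 3, CM KO replicate 1 or CM KO replicate 3 was.

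In the mitochondrial list, 6 of 17 genes were higher in Total KO than in CM KO, with a list median of 0.34 against -0.01 for all tested genes and 8.2% of all genes called higher. Lyrm4, a partner of the cysteine desulfurase that supplies sulfur for clusters, averaged 260 ± 15.9 in Total KO and 180 ± 9.90 in CM KO (0.53 ± 0.11; limma, adjusted p = 0.0073). Isca1, which helps build clusters of the larger kind, averaged 1581 ± 39.8 in Total KO and 1194 ± 152 in CM KO (0.41 ± 0.10; limma, adjusted p = 0.0137). Both calls held under all 11 omissions of a single library and on library totals, and both were lost with the replicates 1 of the 3 knockout groups left out together (0.46 for Lyrm4 and 0.30 for Isca1; limma, adjusted p = 0.0579 and 0.0747). Over the libraries left out, Iba57 ran from 0.34 to 0.62, Glrx5 from 0.25 to 0.42, Hscb from 0.34 to 0.49 and Bola3 from 0.32 to 0.57. None of these passed without CM KO replicate 1, without Total KO replicate 2 or 3, or on library totals. Glrx5, Hscb and Bola3 were also lost without Total KO replicate 1. Hscb was lost as well without EC KO replicate 2, without CM KO replicate 2 or 3, and with no filter. The summed cardiomyocyte markers were 1199189 to 1292589 in Total KO and 700441 to 1029436 in CM KO, with 1 of 8 called higher in Total KO, and their part was not tested. In the heme list, Alad (1.67), Uros (0.30) and Bach1 (0.43) were higher in Total KO, of which Alad passed under all 11 omissions. Uros and Bach1 were both lost without CM KO replicate 1 (0.27 and 0.41), without any 1 Total KO library and on library totals. Both were also lost with the replicates 1 of the 3 knockout groups left out together. Hfe2 (0.48) and Aco1 were the 2 of the regulation list. Hfe2 was lost without CM KO replicate 1 (0.36), without any 1 Total KO library and on library totals. It was also lost with the replicates 1 of the 3 knockout groups left out together. Trf (-0.87) and Lrp1 (-0.87) were lower in Total KO in all 11 fits with 1 library left out. The count of 13 was 6 without Total KO replicate 2 or 3, 7 without Total KO replicate 1 or CM KO replicate 1, and 23 without CM KO replicate 2.

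The genes whose levels followed ferroportin most closely over the 11 libraries were Klhl31, a muscle protein of the Kelch family (Pearson r 0.936), Plbd1, a phospholipase B-like protein (0.932), the acyltransferase gene Agpat3 (0.924), the fatty acid oxidation enzyme gene Eci2 (0.924) and Ccnh, cyclin H (0.923). Plbd1 averaged 742 ± 41.3 in EC KO, 619 ± 64.8 in CM KO, 901 ± 168 in Total KO and 1174 ± 134 in Control. Running opposite were Tssc4 (-0.942), Hps6 (-0.921), BC029214 (-0.916), Lcn2 (-0.915) and Fam195b (-0.913). Lcn2 encodes lipocalin 2, which binds iron through siderophores, and averaged 152 ± 45.8 in EC KO, 385 ± 205 in CM KO, 148 ± 45.5 in Total KO and 51.2 ± 11.95 in Control. Cd36 had r = 0.875, rank 33 of 12976. Of the other iron genes, r was 0.418 for Hfe, 0.406 for Aco1, 0.405 for Ireb2, 0.227 for Fth1, -0.118 for Tfrc, -0.441 for Slc11a2 and -0.583 for Ftl1. Within the 9 knockout libraries alone, r with Slc40a1 was 0.843 for Aco1, 0.678 for Ireb2, 0.638 for Fth1, 0.627 for Cd36, 0.319 for Tfrc, 0.164 for Slc11a2, 0.074 for Hfe and -0.314 for Ftl1. These values describe libraries that share the group structure and, within each library, 1 scaling factor.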

How the data were processed

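RNA from 400 ng of total RNA per heart sample was sequenced after ribosomal depletion with a stranded kit, per the labels' protocols. Per the submitters' processing notes, TopHat2 (version not given), HTSeq 0.8.0, DESeq2 (given as 3.5) and mm10 were used; counting mode, strand setting, annotation and filters are not given in the sources used here. The deposited signal values are read counts per gene that the authors divided by 1 factor per library: all 257620 values (100.0%) gave whole reads, to within 0.05, when divided by the smallest step of their library. Of 23420 genes, 4716 were at 0 throughout, 27 had date-like names and 2 symbols were repeated.

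The main test was limma 3.58.1 (R 4.3.3, trended prior variance) on log2(value + 1) over all 11 libraries, for 12976 genes with a mean of at least 10, with Benjamini-Hochberg adjustment over all tested genes in each of 6 contrasts and calls under 0.05. A fold change on this scale understates the change of low genes. edgeR 4.0.16 (quasi-likelihood) and DESeq2 1.42.0 on the recovered reads, pseudocounts of 0.5 and 5, no filter, upper-quartile and library-total rescaling, fits of 2 groups alone, arrayWeights, each library left out and the replicates 1 of the 3 knockout groups left out together were alternatives. On the recovered reads edgeR called 50, 1007 and 14 genes in EC KO, CM KO and Total KO against Control, and 2423, 4 and 2410 in EC KO minus CM KO, Total KO minus EC KO and Total KO minus CM KO. The scripts were tested on simulated data. Intervals and floors cover counting error or the spread between libraries only.

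The 9 genes and the lists of iron genes and cell type markers were chosen with earlier results of these data known, so no count over them is independent support. Replicates were numbered in order of deposit. Genes named were the 9, Cd36, iron-list genes called in any contrast against Control, the 2 of lowest p in each list and contrast, and the 5 genes most and least like Slc40a1 in Pearson r (mean of at least 50, predicted genes passed over). Genes of the iron lists that were called between knockouts were named after their values were seen. Some genes that this rule takes are not reported here. Gene positions and hairpins were read from GENCODE annotation of GRCm38.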

Additional observations from a re-analysis of the deposited data

How the results depend on the processing

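No paired analysis was possible because replicate numbers only follow the order of deposit. The direction of Slc40a1 was kept in all 3 contrasts against Control under every alternative run, and the cause of the changes below was not tested. The number of genes called moved by over 1.5 times as follows. For EC KO minus Control (41) it was 22 with no filter, 162 by DESeq2, 27 with arrayWeights and 64 with the 3 replicates 1 left out. For CM KO minus Control (739) it was 1276 by DESeq2 and 61 in a fit of 2 groups. For Total KO minus Control (11) it was 7 with no filter, 26 on library totals, 100 by DESeq2 and 72 without the 3 replicates. For EC KO minus CM KO (2479) it was 1288 without the 3 replicates. For Total KO minus EC KO (5) it was 0 with no filter, 70 by DESeq2, 14 in a fit of 2 groups, 116 with arrayWeights and 17 without the 3 replicates. For Total KO minus CM KO (2128) it was 3553 with arrayWeights and 917 without the 3 replicates. By edgeR, the higher and lower calls against Control were 23 and 27 in EC KO and 7 and 7 in Total KO. Iron genes called against Control were 2 by DESeq2 and 1 each in a fit of 2 groups, with arrayWeights and without the 3 replicates in EC KO (main 0), 1 in a fit of 2 groups in CM KO (main 3) and 1 without the 3 replicates in Total KO (main 0). Between knockouts they were 20 with arrayWeights and 7 without the 3 replicates for EC KO minus CM KO (main 11), 2 with arrayWeights for Total KO minus EC KO (main 0), and 7 on library totals, 21 by DESeq2, 30 with arrayWeights and 5 without the 3 replicates for Total KO minus CM KO (main 13). With 1 library left out, genes called ran from 5 to 84, 26 to 999 and 1 to 33 in EC KO, CM KO and Total KO against Control, with the lowest counts without Control replicate 2, Control replicate 1 and Control replicate 1. They ran from 1455 to 2582, 0 to 28 and 1036 to 2272 in EC KO minus CM KO, Total KO minus EC KO and Total KO minus CM KO. Iron genes ran from 0 to 1, 0 to 4 and 0 to 0 against Control, and from 6 to 14, 0 to 0 and 6 to 23 between knockouts, in the same orders. Differences of uncalled genes that changed sign with 1 library left out had these ranges: Tfrc in CM KO -0.08 to 0.32, Slc11a2 in EC KO -0.17 to 0.38, in CM KO -0.13 to 0.42 and in Total KO -0.026 to 0.52, Ireb2 in EC KO -0.012 to 0.32, in CM KO -0.33 to 0.006 and in Total KO -0.18 to 0.16, Aco1 in EC KO -0.024 to 0.12, Heph in CM KO -0.14 to 0.055 and in Total KO -0.087 to 0.004, Pcbp1 in Total KO -0.036 to 0.34, and Cp in Total KO -0.092 to 0.35. Heph in CM KO was 0.072 on library totals. Depth limits Hamp, with at most 5 reads in a library, and EC KO replicate 1, where 1 read is worth 6.04 normalized counts.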
